A study of Mus musculus with 58 samples.

Results

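The genes described here encode SR proteins, hnRNPs and the SF3 subunits of the spliceosome. They were chosen by name, as every gene whose symbol is Srsf or Sf3a or Sf3b followed only by a number, or begins with Hnrnp. The rule found 40 of the 20177 genes in the count tables, namely 11 SR genes, 20 hnRNP genes and 9 SF3 genes, and no measured value entered the rule, though this group of genes was picked with earlier results of these data known. They cover 123 of 46420 annotated 3′ UTR intervals (rows), and 22 of the 40 genes have more than 1 row. Of these genes, 39 passed the filter on low counts in each comparison between conditions. The exception was Srsf12, with 152 reads over the 57 libraries analysed.

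SR proteins carry a domain rich in arginine and serine, bind exonic enhancers and help the spliceosome to recognise exons. hnRNPs coat nascent pre-mRNA, and many of them repress nearby splice sites or act on the stability and export of the RNA. SF3A and SF3B are parts of the U2 snRNP and hold it at the branch point of the intron. Several SR and hnRNP genes keep their own level in check by alternative splicing that sends part of their transcripts to nonsense-mediated decay.

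The study asked what H3K4me3 at promoters does for transcription by removing subunits of the SET1/COMPASS methyltransferases from E14 mouse embryonic stem (mES) cells of the 129/Ola background. New RNA was labelled with 100 µM 4-thiouridine for 60 min and read as T>C conversions in 3′-end libraries (SLAM-seq). One set of libraries came from DPY30–mAID cells, in which auxin with OsTIR1 degrades DPY30, at 0 h, 2 h, 8 h and 24 h with 3 replicates each. A second set came from RBBP5–FKBP cells, in which dTAG-13 degrades RBBP5, with the same times and replicates. The third set came from DPY30–mAID cells that also lack Kdm5a and Kdm5b (dKO), the H3K4me3 demethylase genes, with 2 replicates before auxin (0 h) and after 2 h, 4 h, 8 h, 24 h and 48 h of it. Unlabelled RNA of DPY30–mAID cells (Quant-seq) was taken with DMSO at 0 h of retinoic acid (RA), and with DMSO or auxin after 8 h of RA and 1, 2, 4 and 6 days of it, with 2 libraries each. All lines carry a degron, the SLAM-seq 0 h libraries have no ligand, and the edited lines derive from sorted single cells, so a line stands for the clones picked. The study calls the SLAM-seq replicates biological, and the labels do not say whether they are separate cultures, so p-values measure the spread between these samples only.

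SLAM-seq libraries held 2013350 to 2806821 reads in DPY30–mAID cells, 1721185 to 2852331 in RBBP5–FKBP cells and 5931269 to 7792404 in dKO cells, and Quant-seq libraries held 1264241 to 2543632. A covered read held 18.4 to 19.0 T positions in DPY30–mAID and 11.2 to 11.3 in dKO libraries, so T>C shares are compared between times of 1 line. Kdm5b, a deleted gene, stood at 906 to 946 reads per 1000000 reads of the library (RPM) in DPY30–mAID cells at 0 h and at 109 to 151 in dKO cells, and Kdm5a at 74.5 to 106 and at 26.0 to 27.5. The 8 pluripotency markers of mES cells summed to 8621 to 9438 RPM in DPY30–mAID cells at 0 h, 7302 to 7727 at 8 h and 8036 to 8590 at 24 h, and none was at 0. With RA and DMSO that sum went from 6940 to 7144 at 0 h to 3382 to 3397 on day 4, while the sum of primitive endoderm markers went from 9.41 to 10.6 to a range of 1553 to 1573. These are bulk samples, in which fewer cells of a type and less RNA per cell cannot be told apart. Reads that map to more than 1 place made up over 50% of the reads of 6 members in DPY30–mAID and RBBP5–FKBP cells and of 10 in dKO and Quant-seq libraries, led by Hnrnpa1, Hnrnpf, Hnrnph2, Hnrnpa3 and Hnrnph1. For Hnrnpa1 they made up 98.4% in DPY30–mAID and 99.8% in dKO cells, so reads of such genes may be shared with near-identical copies and their values are uncertain. For Srsf7 they made up 0.2% and 9.0%. Other SR genes had more, with 32.6% and 63.7% for Srsf5, 43.3% and 61.5% for Srsf10 and 43.3% and 51.2% for Srsf2.

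At 0 h the median SR, hnRNP and SF3 gene was labelled less than the median gene of DPY30–mAID cells. Conversions per 100 covered T positions allow genes to be compared, since they do not depend on length or level. In a ranking of the 4080 genes that averaged 100 reads or more, the median SR gene stood at percentile 37.7, the median hnRNP gene at 40.15 and the median SF3 gene at 48.1. Srsf4, a large SR protein, was the highest labelled member in all 3 lines, with 1.92 ± 0.18 (SD, n = 3) conversions per 100 T in DPY30–mAID cells, 0.97 ± 0.61 (n = 3) in RBBP5–FKBP cells and 1.05 ± 0.16 (n = 2) in dKO cells. The lowest in DPY30–mAID cells were Hnrnpc, which binds uridine tracts, at 0.48 and Hnrnpd, which binds AU-rich elements of mRNAs, at 0.49. Srsf7 stood at 0.65 in DPY30–mAID cells (percentile 19.9), at 0.38 in RBBP5–FKBP cells (percentile 26.8) and at 1.03 in dKO cells (percentile 82.6). The median SR gene was at percentile 44.3 of 4172 genes in RBBP5–FKBP and 72.25 of 6870 genes in dKO cells, and the median hnRNP gene at 37.8 and 27.8. The libraries of the lines differed in T positions per covered read, depth and multimapped reads. Genotype, clone and sequencing therefore cannot be told apart in these differences between lines. In unlabelled libraries no member passed 0.084 conversions per 100 T.

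After 2 h of auxin, no member was called in newly made RNA in DPY30–mAID cells. No gene of the whole table was called (0.0%) by edgeR's quasi-likelihood test with Benjamini-Hochberg adjustment, and at an unadjusted p below 0.05 there were 199 genes and 0 members. The median log2 change in T>C reads was −0.20 over the members and −0.08 over all tested genes.

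At 8 h of auxin, newly made RNA of 21 of the 39 members was lower and of none higher, while 16.1% of all tested genes were called lower. These were 7 of 10 SR genes, 11 of 20 hnRNP genes and 3 of 9 SF3 genes. All members together held 2.12% of the library reads at 0 h, and the shares over all genes, here and below, are not matched for read level. A change is easier to call in genes with more reads, so a count of calls alone does not set the members apart. The median log2 change was −1.43 for SR genes, −1.15 for hnRNP genes and −1.03 for SF3 genes, against −0.71 for all genes. Of the 8 pluripotency markers 6 were lower too, with a median of −1.03, and their part was not tested. T>C reads were scaled to the total reads of the library, which keeps a drop shared by all genes in the values. Scaled to the T>C reads themselves, 13 members were called, and with only the 2 groups fitted 9. The count was 13 without the second 8 h library and 13 to 30 over all libraries left out in turn, and the third 8 h library had the lowest T>C share over all genes, 5.51% against 13.0% and 9.82% in the other 8 h libraries.

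Srsf7, an SR protein that also serves as an adaptor for mRNA export, had the largest fall in newly made RNA among the members on the log2 scale. Its T>C RPM (T>C reads per 1000000 total reads of the library) were 131, 78.4 and 124 at 0 h and 45.6, 25.2 and 15.0 at 8 h, a log2 change of −2.05 (SE 0.33, edgeR adjusted p = 2.92e-05). Srsf3, the smallest SR protein, had 180, 130 and 195 at 0 h and 69.9, 55.7 and 23.7 at 8 h, a log2 change of −1.85 (SE 0.30, edgeR adjusted p = 4.3e-05). In both genes the groups did not overlap. Srsf9, Srsf1, Srsf10, Srsf2 and Srsf6 were lower by 1.05 to 1.59 on the log2 scale. Of these Srsf1 is the founding SR protein, known also as ASF/SF2, and Srsf2 marks nuclear speckles.

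Among the hnRNP genes at 8 h, Hnrnph1, whose protein binds runs of G, had a log2 change in T>C reads of −1.87, followed by Hnrnph2 at −1.78. Hnrnpa2b1, an RNA transport and splicing factor, stood at 74.2, 73.0 and 66.7 T>C RPM at 0 h and at 44.3, 32.9 and 6.38 at 8 h (log2 change −1.45, SE 0.37, edgeR adjusted p = 0.00569). Hnrnpu, a nuclear scaffold protein, had a log2 change of −1.42, and Hnrnpa1, a repressor of exon inclusion, of −1.40. Of the SF3 genes, Sf3b5 fell by 1.51, Sf3b3 by 1.11 and Sf3b4 by 1.03 on the log2 scale. Sf3b1, the subunit that clamps the branch site, was at −0.96 with an adjusted p of 0.0553 by edgeR, so it did not pass.

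In the total reads of the same libraries, which count old and new RNA together, most members called lower at 8 h were SR genes. Lower levels were called for 9 members, of which 6 were SR genes, with 7.61% of all tested genes lower, and higher levels for 3 members with 5.38% of all genes higher. The count of lower members was 5 to 11 with 1 library left out, 5 without the second 0 h or the third 8 h library, and 5 without TMM factors. Srsf7 had 911, 922 and 1035 RPM at 0 h, 905, 846 and 944 at 2 h, and 206, 175 and 144 at 8 h. For Srsf7 all 8 h libraries lay below every earlier library, with a log2 change of −2.55 (SE 0.11, edgeR adjusted p = 1.91e-25). The gene lies on chromosome 17, 80200080 to 80207307 on the minus strand of GRCm38, and its reads come from a single row.

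Srsf3 had 1188, 1259 and 1328 RPM at 0 h and 591, 505 and 508 at 8 h, a log2 change of −1.34 (SE 0.09, edgeR adjusted p = 7.97e-17). Srsf5 had 193, 282 and 264 at 0 h and 110, 110 and 87.0 at 8 h, a log2 change of −1.37 (SE 0.15, edgeR adjusted p = 1.02e-09). Neither gene's 8 h range met its 0 h range. Srsf10 (−0.83), Srsf2 (−0.60) and Srsf1 (−0.36) were lower by less, and Sf3b4 (−0.38) was also lower. Of the hnRNP genes 2 were called lower, among them Hnrnpf, with 98.9% multimapped reads, which turned direction without such reads. The members that were higher were Hnrnpl (0.47), whose protein binds CA repeats, Sf3b3 (0.46) and Hnrnpa1 (0.25), and with any one 0 h or 8 h library left out 0 to 2 members were called higher. The median member stood at −0.08 and the median gene at 0.01, while the median SR gene stood at −0.48; without TMM factors the median member stood at 0.03.

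**Figure D1:**
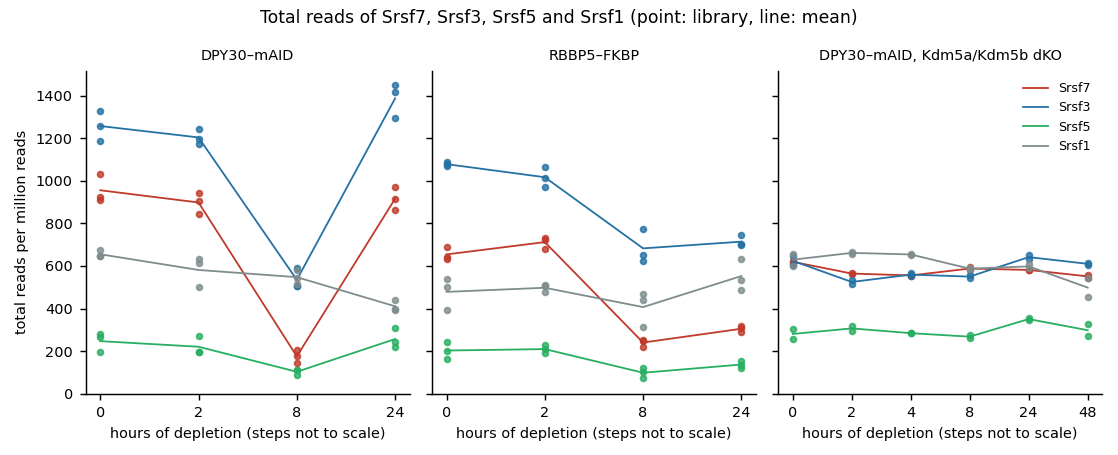
Total reads, in RPM (vertical axis) of Srsf7, Srsf3, Srsf5 and Srsf1 against hours of depletion in the 3 lines; points are libraries and lines join the means. In DPY30–mAID cells Srsf7 goes from 911 to 1035 at 0 h to 144 to 206 at 8 h and back to 864 to 971 at 24 h, whereas in dKO cells it stays between 546 and 624 at 0 h, 8 h and 48 h.

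At 24 h of auxin members were called in both directions in DPY30–mAID cells. In newly made RNA 4 hnRNP genes were lower (2.79% of all tested genes were) and 2 SR genes, Srsf3 and Srsf7, were higher (0.823% of all tested genes were). Srsf3 reached 451, 523 and 510 T>C RPM, a log2 change of 1.55 against 0 h (SE 0.29, edgeR adjusted p = 0.000875). Srsf7 reached 298, 345 and 309, a log2 change of 1.503 (SE 0.31, edgeR adjusted p = 0.00258). Both sets of 24 h libraries lay above all 0 h libraries, and both calls held with every single library left out. The lower genes were Hnrnpul2 (−2.31, from 23 to 38 T>C reads per library at 0 h and 3 to 9 at 24 h), Hnrnpa1 (−1.26), Hnrnph1 (−1.23) and Hnrnpu (−0.97). With 1 library left out in turn 0 to 2 members were called lower, 0 without the second 0 h or the third 24 h library. Scaled to T>C reads 8 were lower and 6 higher, with only the 2 groups fitted 12 and 6, and without TMM factors 2 were lower.

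The total level of Srsf7 was 864, 971 and 915 RPM at 24 h and that of Srsf3 was 1296, 1450 and 1419, within or near their 0 h ranges. Both had an adjusted p above the threshold by edgeR against 0 h (0.616 and 0.263). The share of their reads that carried conversions therefore stood far from its 0 h values. For Srsf7 it was 14.4%, 8.50% and 11.97% at 0 h and 34.5%, 35.5% and 33.8% at 24 h, and for Srsf3 it was 15.1%, 10.3% and 14.7% against 34.8%, 36.1% and 35.9%. Srsf2 went from a range of 14.4% to 15.3% to one of 29.0% to 30.0%. Over all SR reads the share was 14.7% ± 1.65 (SD, n = 3) at 0 h and 30.3% ± 0.81 (n = 3) at 24 h, while over all genes it was 15.9% and 15.3%.

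By gene, 8 of 10 SR genes (Srsf1, Srsf2, Srsf3, Srsf4, Srsf5, Srsf6, Srsf7 and Srsf10) had a T>C share above every 0 h library in all 24 h libraries, where 9.1% of all tested genes did. Among the hnRNP genes 5 of 20 did, and of the SF3 genes 0 of 9. Shares below every 0 h library were found for 5 members and 10.7% of all genes. The median difference in share was 10.9 percentage points for SR genes, 1.84 for hnRNP genes, −0.75 for SF3 genes and −0.40 for all genes.

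**Figure D2:**
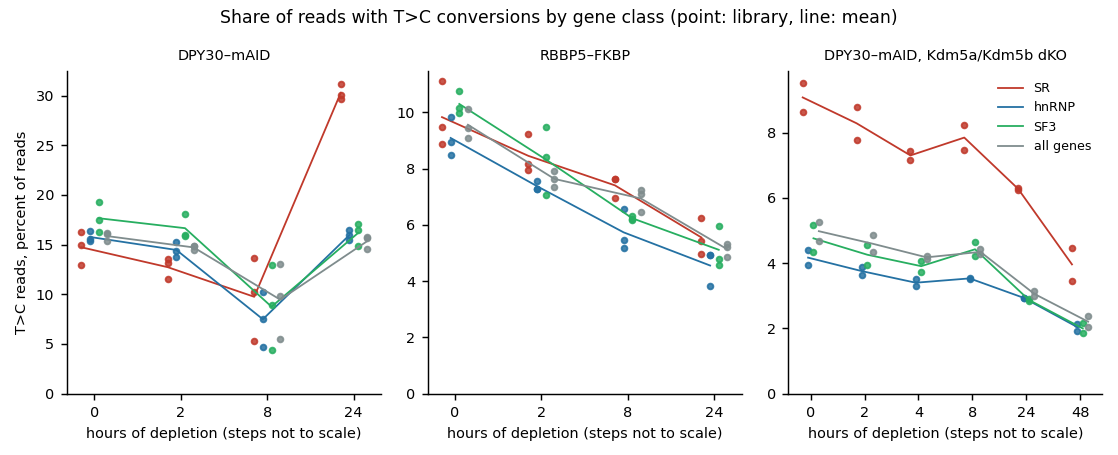
Percent of reads with T>C conversions (vertical axis) summed over the SR, hnRNP and SF3 genes and over all genes, against hours of depletion, 1 panel per line with its own scale; points are libraries and lines join the means. In DPY30–mAID cells at 24 h the SR genes stand at 30.3% and all genes at 15.3%; in RBBP5–FKBP cells the SR genes stand at 5.55% and all genes at 5.13%.

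Total reads at 24 h in DPY30–mAID cells were lower for 24 of 39 members (17.1% of all tested genes) and higher for 4 (15.9% of all tested genes). The lower genes were 5 SR, 14 hnRNP and 5 SF3 genes, and the median member stood at −0.50 against 0.01 for all genes. Hnrnph1 had 287, 254 and 231 RPM at 0 h and 89.1, 113 and 81.1 at 24 h (log2 change −1.46). Hnrnpd, an RNA stability factor also called AUF1, had 549, 575 and 508 at 0 h and 260, 194 and 229 at 24 h (log2 change −1.27). Sf3a2, a subunit of SF3A, fell by 1.203, Hnrnph3 by 1.09 and Hnrnpul2 by 1.02 on the log2 scale. The higher genes were Srsf11 (0.44), Hnrnpk (0.38), a poly(C)-binding protein, Hnrnpc (0.31) and Hnrnpdl (0.26). Only 2 members were called higher without the second or the third 24 h library. Sf3b1 stood at 190, 196 and 263 RPM at 0 h and 230 to 262 at 24 h, and was not called. The 6 neural markers summed to 104.7 to 125.5 RPM at 0 h and 53.8 to 70.2 at 24 h, and their part was not tested.

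**Figure D3:**
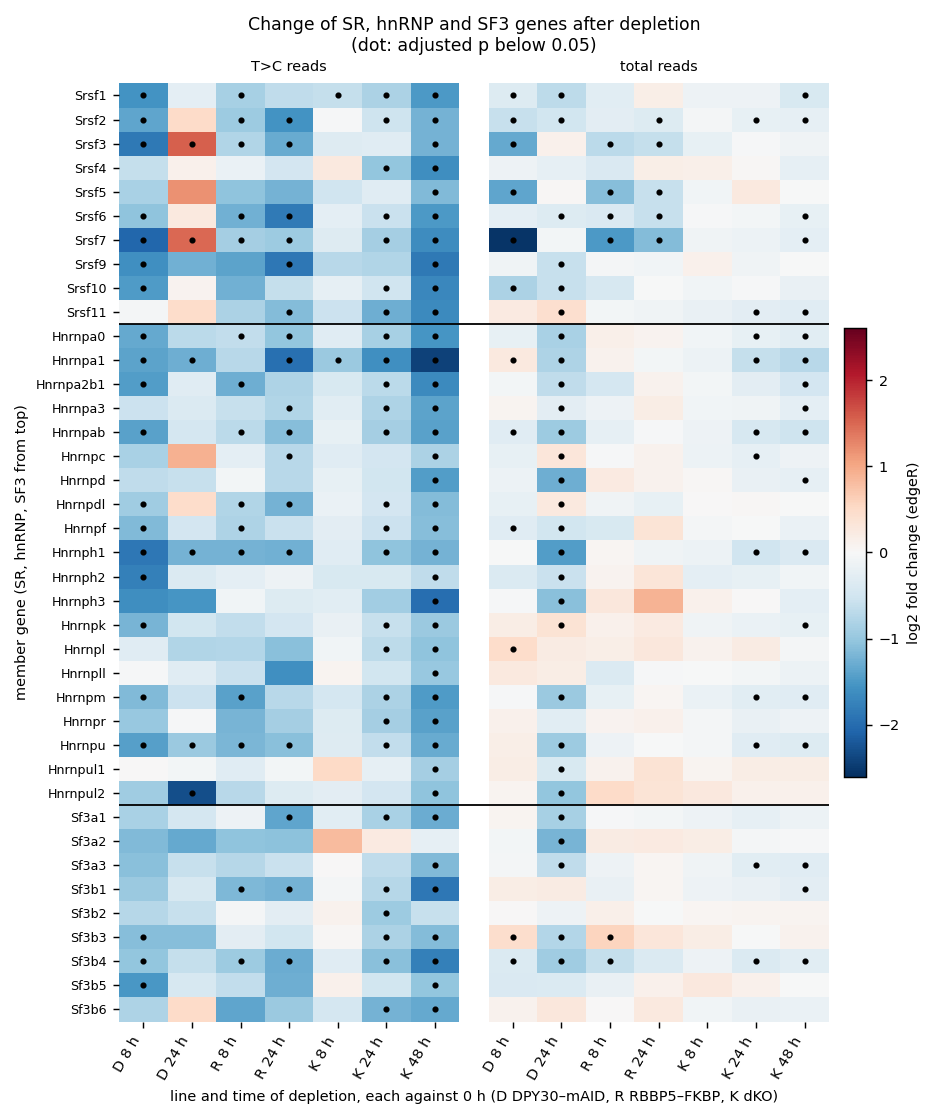
Log2 fold change against 0 h of the 39 tested genes (rows) in T>C reads (left block) and total reads (right block) for DPY30–mAID (D), RBBP5–FKBP (R) and dKO (K) cells; blue is lower, red is higher and a dot marks an edgeR adjusted p below 0.05. In T>C reads the dots number 21 at 8 h and 6 at 24 h in D, 15 and 17 in R, and 2, 26 and 37 at 8 h, 24 h and 48 h in K.

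In RBBP5–FKBP cells no member was called at 2 h of dTAG-13 by edgeR (0.252% of all tested genes were; 6 members and 559 of 4761 genes had an unadjusted p below 0.05), although DESeq2 called 2. At 8 h newly made RNA was lower for 15 members (7.71% of all tested genes), 5 SR, 8 hnRNP and 2 SF3 genes, with a median of −0.78 against −0.50 for all genes. At 24 h it was lower for 17 (25.9% of all tested genes), with a median of −0.96 against −0.91. The pluripotency markers summed to 6455 to 6532 RPM at 0 h, 6553 to 6926 at 8 h and 6492 to 6582 at 24 h. The 6 neural markers summed to 69.73 to 87.15 at 0 h, 115.1 to 121.0 at 8 h and 84.83 to 122.7 at 24 h. Their part was not tested. The first 0 h library and the second 8 h library stood apart, with 1.04% of their reads in hnRNP genes against 1.23% and 1.24%, and 0.99% against 1.18% and 1.32%, in the others of their group, and with the lowest Dpy30 level of their group (162 RPM of a range to 468, and 131 of a range to 337). Without that 0 h library 9 members were called at 8 h, and without that 8 h library 4. Leaving out any 0 h or 8 h library reduced the 8 h count to between 4 and 9, and the 8 h count was 5 with only the 2 groups fitted, 6 without TMM factors and 8 without a filter on low counts. Scaled to T>C reads 0 members were called at 8 h and 3 at 24 h, namely Hnrnpa1, Srsf2 and Srsf6. Srsf2 had 124, 115 and 106 T>C RPM at 0 h, 71.4, 68.5 and 45.1 at 8 h and 38.5, 35.9 and 46.3 at 24 h, a log2 change of −1.55 at 24 h (SE 0.22, edgeR adjusted p = 2.26e-07). Hnrnpa1 had 70.2, 75.0 and 51.9 at 0 h and 14.2, 28.0 and 9.64 at 24 h, a log2 change of −1.96 (SE 0.31, edgeR adjusted p = 1.4e-06). Srsf9 (−1.89) and Srsf6 (−1.83) were lower at 24 h too, and of the SF3 genes Sf3a1 (−1.38), Sf3b4 (−1.29) and Sf3b1 (−1.24).

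The total levels of some SR genes fell in RBBP5–FKBP cells as well, with Srsf7, Srsf5 and Srsf3 called lower at 8 h as in DPY30–mAID cells. At 8 h lower levels were called for 5 members (5.12% of all tested genes) and higher levels for 1, Sf3b3 at 0.58 (4.13% of all tested genes). The lower genes were Srsf7, Srsf5, Srsf3, Sf3b4 and Srsf6. With 1 library left out 3 to 8 were lower, 3 without the second or the third 0 h library or the first or the second 8 h library and 8 without the third 8 h library, and 3 were lower without TMM factors or with only the 2 groups fitted. The Sf3b3 call was lost without the second or the third 0 h library or the first 8 h library, and with only the 2 groups fitted. Srsf7 had 641, 634 and 689 RPM at 0 h, 732, 682 and 723 at 2 h, 245, 221 and 254 at 8 h and 310, 316 and 289 at 24 h. Its 8 h and 24 h libraries lay below all those of 0 h and 2 h, and the 24 h libraries above those of 8 h, with log2 changes of −1.497 (SE 0.12, edgeR adjusted p = 7.66e-09) and −1.14 (SE 0.11, edgeR adjusted p = 5.05e-07). Srsf3 had 1070 to 1089 at 0 h, 621 to 775 at 8 h and 698 to 744 at 24 h.

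At 24 h the 5 members called lower in total reads (4.49% of all tested genes) were all SR genes, namely Srsf7, Srsf3 (−0.63), Srsf5 (−0.60), Srsf6 (−0.60) and Srsf2 (−0.35). With 1 library left out in turn 3 or 4 were called. The T>C share of Srsf7 was 9.23%, 7.799% and 5.96% at 0 h and 8.01%, 8.70% and 9.18% at 24 h, ranges that overlapped. No member had a share above every 0 h library at 24 h (0.546% of all genes did), and 26 members, 5 of them SR genes, had one below (41.8% of all genes). Whether the 24 h response differs between the DPY30–mAID and RBBP5–FKBP lines was not tested.

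In dKO cells few members were called in newly made RNA before 24 h. At 2 h none was called by edgeR, and no gene was (0.0%); 5 members and 460 of 5965 genes had an unadjusted p below 0.05. At 4 h 1 member, Srsf11 (−0.82), was lower (0.587% of all tested genes), and 3 of the 4 ways of leaving out a library removed that call. At 8 h 2 were lower (1.54% of all tested genes), Hnrnpa1 at −0.96 (SE 0.16, edgeR adjusted p = 3.38e-05) and Srsf1 at −0.63 (SE 0.17, edgeR adjusted p = 0.0391), and 1 to 4 were called with a library left out. At 24 h 26 were lower (43.0% of all tested genes), 7 SR, 13 hnRNP and 6 SF3 genes, and 15 without the second 0 h library. At 48 h 37 were lower (72.2% of all tested genes), that is every tested member except Sf3a2 and Sf3b2. The pluripotency markers summed to 7093 to 7357 RPM at 0 h, 5980 to 6042 at 24 h and 6242 to 6335 at 48 h, with none at 0, and 7 and 8 of the 8 were lower in T>C reads at 24 h and 48 h. Their part was not tested. The medians at 24 h and 48 h were −0.70 and −1.31 for the members and −0.80 and −1.29 for all genes. Scaled to T>C reads only 1 member was called lower at 24 h, Hnrnpa1, and 4 at 48 h, and the median at 24 h became 0.04.

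Hnrnpa1 moved most in dKO cells at 48 h on the log2 scale, with 65.2 and 60.1 T>C RPM at 0 h, 32.1 and 33.6 at 8 h, 20.4 and 22.7 at 24 h and 11.4 and 13.4 at 48 h. Each group lay below the one before, and the log2 change at 48 h was −2.42 (SE 0.18, edgeR adjusted p = 1.22e-20). Hnrnph3 (−1.99), Sf3b1 (−1.88), Srsf9 (−1.85) and Sf3b4 (−1.78) followed at 48 h. Srsf7 had 75.9 and 80.6 T>C RPM at 0 h, 64.4 and 62.3 at 8 h, 45.4 and 43.4 at 24 h and 24.1 and 29.6 at 48 h (log2 change −1.63). The share of SR reads with conversions was 9.08% at 0 h, and it was 6.28% at 24 h and 3.96% at 48 h, while that of all genes was 4.98%, 3.06% and 2.20%. At 24 h 33 members had a share below every 0 h library (77.5% of all genes) and none above (1.01% of all genes).

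In total reads of dKO cells no member was called at 8 h by edgeR (0.772% of all tested genes were called in either direction, and 9 members and 1376 of 11394 genes had an unadjusted p below 0.05). At 24 h 11 were lower (6.44% of all tested genes) and at 48 h 18 (7.84% of all tested genes). The 24 h count was 6 without the first and 5 without the second 24 h library and 6 without TMM factors, and the 48 h count was 11 without TMM factors and 4 with only the 2 groups fitted. Their changes were small. Hnrnpa1 stood at −0.63 and −0.72, from 2636 and 2443 RPM at 0 h to 1669 and 1611 at 48 h. Hnrnpab, Hnrnph1 and Srsf1 stood at −0.55, −0.39 and −0.42 at 48 h. Srsf7 went from 615 and 624 at 0 h to 581 and 595 at 8 h and 557 and 546 at 48 h (log2 change −0.26 at 48 h).

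Whether auxin acted differently in dKO and in DPY30–mAID cells was tested directly. The effect of auxin here is the log2 change from 0 h, and the difference is dKO minus DPY30–mAID. A higher effect is therefore a less negative or more positive change, which can be a weaker response. For total reads this test was added after the values had been seen. At 8 h the effect of auxin was higher in dKO cells for 5 members, all SR genes (2.38% of all tested genes), and lower for 1, Hnrnpa1 (1.36% of all tested genes). The differences on the log2 scale were 2.46 for Srsf7 (SE 0.14, edgeR adjusted p = 5.19e-15), 1.29 for Srsf5 (SE 0.21, edgeR adjusted p = 0.000228) and 1.14 for Srsf3 (SE 0.11, edgeR adjusted p = 2.2e-08), with 0.76 for Srsf10 and 0.57 for Srsf2. Multimapped reads made up 32.6% of the Srsf5 reads in DPY30–mAID and 63.7% in dKO cells. The call of Hnrnpa1 (−0.40) was lost without either 8 h dKO library, without the first 0 h dKO library and without multimapped reads. At 24 h 17 members had a higher effect in dKO cells (8.61% of all tested genes), led by Hnrnpul2 and Sf3a2 (both 1.17), Hnrnph3 (1.14) and Hnrnpd (1.09), and 4 a lower one (7.81% of all tested genes), Srsf11 (−0.69), Hnrnpk (−0.54), Hnrnpc (−0.52) and Sf3b6 (−0.46). Without the first 0 h dKO library 11 had a higher effect.

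For newly made RNA no member differed at 2 h by edgeR (0.0% of all genes; 0 members and 138 genes had an unadjusted p below 0.05). At 8 h the effect was higher in dKO cells for 2 members (0.304% of all tested genes), Srsf7 by 1.73 (SE 0.40, edgeR adjusted p = 0.028) and Srsf3 by 1.53 (SE 0.38, edgeR adjusted p = 0.0456). Those calls rest on single libraries, since 0 to 18 members were called with 1 library left out in turn. The 18 came without the first 8 h DPY30–mAID library, and 0 were called without either 0 h or either 8 h dKO library, without the first or the third 0 h or the second 8 h DPY30–mAID library. Without TMM factors 0 were called, scaled to T>C reads 4 and by DESeq2 8. The median difference was 0.89 over the members and 0.53 over all genes. At 24 h the effect was lower in dKO cells for 3 SR genes (2.38% of all tested genes), Srsf7 by 2.36 (SE 0.39, edgeR adjusted p = 0.000119), Srsf3 by 1.85 (SE 0.37, edgeR adjusted p = 0.0036) and Srsf11 by 1.72 (SE 0.49, edgeR adjusted p = 0.0394). Only 1 was called without the second 0 h or the first 24 h dKO library, and DESeq2 called 7. The libraries of the lines differed in T positions per covered read and in depth, so genotype, clone and sequencing cannot be told apart in levels at 0 h or in these differences.

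At 0 h, 15 members were lower in dKO than in DPY30–mAID cells (20.4% of all tested genes) and 13 higher (25.9% of all tested genes), with a median of −0.07 against 0.14 for all genes. Higher were Hnrnpa2b1 (1.59), Hnrnpa1 (1.16), Hnrnph3 (0.94), Hnrnpll (0.93) and Hnrnph1 (0.88), and of the SF3 genes Sf3b1 (0.79). Lower were Sf3a2 (−1.17), Srsf2 (−1.06), Srsf3 (−0.995), Srsf6 (−0.77) and Srsf7 (−0.61). The part of multimapped reads differed between the lines for Hnrnpa2b1 (24.2% in DPY30–mAID and 53.7% in dKO cells). Without such reads Hnrnpa2b1 stood at 0.98 and was still called higher, while Hnrnpa1 stood at −1.81, so its direction turned.

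Other splicing genes were compared by lists written for this purpose. Of 18 tested SR-like activators and cofactors 10 had lower newly made RNA at 8 h in DPY30–mAID cells, as did 7 of 15 other hnRNP-like genes, 6 of 16 other U2 snRNP genes, 6 of 33 genes of Sm proteins and of the U1, U4/U6 and U5 particles, 2 of 20 Prp19 and catalytic-step genes, 1 of 12 exon-junction and decay genes, and 1 of 7 genes of SR kinases and import. The same background of 16.1% applies. In total reads at 8 h Tra2a (−1.64) and Tra2b (−1.12), SR-like activators that bind GAA-rich enhancers, fell the most of the first list. Both had a higher effect of auxin in dKO cells at 8 h in total reads, by 1.49 and 1.16 on the log2 scale, and a lower one in T>C reads at 24 h, by 1.57 and 1.41. At 48 h in dKO cells 18 of 18 tested SR-like genes and 23 of 33 of the Sm, U1, U4/U6 and U5 list were lower in T>C reads, against the 72.2% background.

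In DPY30–mAID cells treated with DMSO, the levels of 9 of the 39 members differed from 0 h after 8 h of RA and those of most members from day 1. RA was given without LIF, the cytokine that keeps mES cells in their state, so RA, loss of LIF and time in culture cannot be told apart. At 8 h 8 members were lower (9.4% of all tested genes) and 1 was higher (8.94% of all tested genes). With 1 library left out 4 to 6 were lower, 4 without the second 0 h and 5 without the first 8 h library, and 4 were higher with only the 2 groups fitted, 3 without a filter on low counts and 2 without multimapped reads. Srsf5 went from 251 and 219 RPM at 0 h to 81.0 and 70.1 at 8 h and 82.5 and 79.3 on day 1, then to 346 and 291 on day 4. The 8 h and day 1 libraries lay far below the rest, with a log2 change of −1.58 at 8 h (SE 0.20, edgeR adjusted p = 1.37e-06). Srsf7 (−0.55), Srsf2 (−0.41) and Srsf3 (−0.32) were also lower at 8 h. The higher member was Hnrnph1, from 158 and 157 at 0 h to 350 and 364 at 8 h (log2 change 1.24, SE 0.10, edgeR adjusted p = 2.38e-09), and it stayed at 298 to 421 through day 4. Of its reads in Quant-seq libraries 81.8% were multimapped, and of those of Srsf5 74.0%.

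On day 1 of RA 23 members were lower (23.9% of all tested genes) and 5 higher (27.9% of all tested genes). Lower were 5 of 10 SR, 12 of 20 hnRNP and 6 of 9 SF3 genes, and the median was −0.65 for the members against 0.10 for all genes. Hnrnpd went from 624 and 588 RPM at 0 h to 144 and 137 on day 1, and was back at 555 and 504 on day 4. Its day 1 log2 change was −2.10 (SE 0.11, edgeR adjusted p = 1.74e-14). Sf3a1 and Sf3b3, subunits of SF3A and SF3B, stood at −1.70 and −1.65, Hnrnph2 at −1.65 and Srsf2 at −1.47. The higher members were Hnrnph1 (0.97), Hnrnph3 (0.80), Hnrnpc (0.66), Hnrnpll (0.63) and Sf3b6 (0.40).

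On day 2 of RA 27 members were lower (22.6% of all tested genes) and 4 higher (25.4% of all tested genes), and on day 4 22 were lower (26.5% of all tested genes) and 3 higher (27.8% of all tested genes). With any 1 library left out 2 were higher on day 2 and 1 or 2 on day 4, where 1 was left without the second day 4 library and 5 were higher without TMM factors. The SF3 genes were lower as a class on day 4, all 9 of 9, by 0.46 to 0.88 on the log2 scale. Sf3b1 had 284 and 319 RPM at 0 h and 213 and 204 on day 4, and Sf3a3 had 131 and 157 against 103 and 102. Neither pair of groups overlapped. The median over all members was −0.36 on day 4 and −0.18 without TMM factors. Without multimapped reads Hnrnpf and Hnrnpa1 turned direction on day 4. Pluripotency and primitive endoderm markers moved over the same days, as given above, and the part of a changing mix of cells in these values was not tested.

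**Figure D4:**
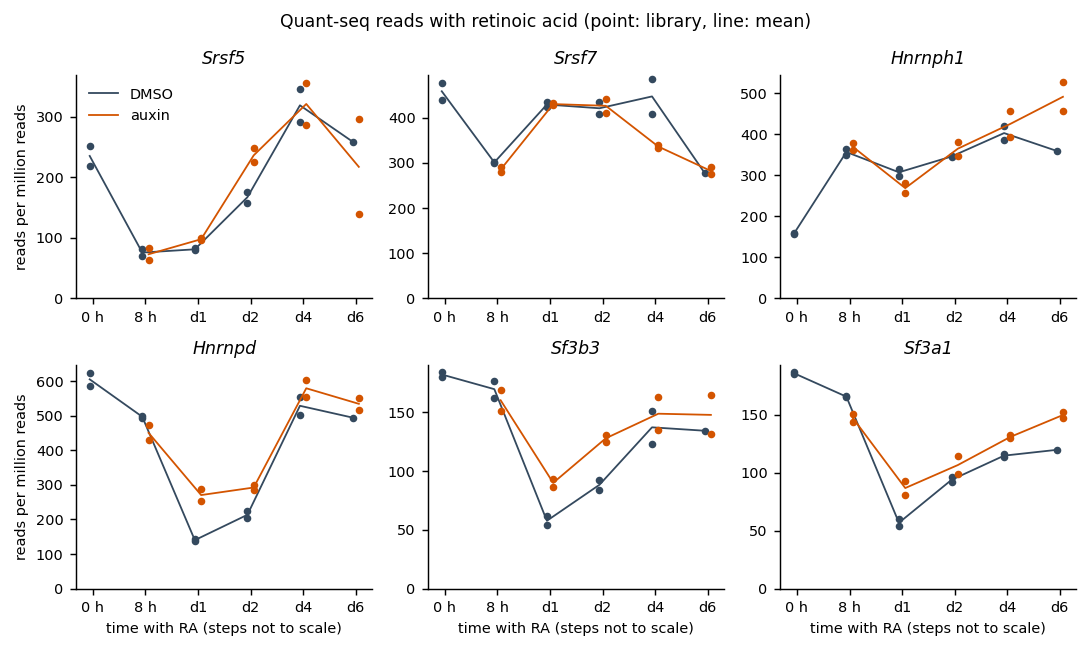
Quant-seq reads, in RPM (vertical axes) of Srsf5, Srsf7, Hnrnph1, Hnrnpd, Sf3b3 and Sf3a1 against time with RA, for DMSO (dark) and auxin (orange); points are libraries and lines join the means, with a single DMSO value on day 6. Hnrnpd on day 1 stands at 137 to 144 with DMSO and 253 to 288 with auxin, and Srsf7 on day 4 at 409 to 485 and 334 to 339.

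Auxin during RA had no called effect on a member at 8 h by edgeR (0.788% of all tested genes were called in either direction, and 8 members and 1227 of 11415 genes had an unadjusted p below 0.05), and DESeq2 called 1. On day 1, 7 members were higher with auxin than with DMSO (3.52% of all tested genes). Hnrnpd had 253 and 288 RPM with auxin and 144 and 137 with DMSO (log2 difference 0.96, SE 0.11, edgeR adjusted p = 3.39e-06). Sf3b3 (0.66), Sf3a1 (0.63), Hnrnpu (0.58), Hnrnpdl (0.46), Hnrnpa0 (0.38) and Hnrnpa3 (0.27) made up the rest, and 2 were called without the first auxin library of day 1, 4 without the first and 3 without the second DMSO library, and 13 with only the 2 groups fitted. The sum of the pluripotency markers on day 1 was 4945 to 5004 with auxin and 7412 to 7540 with DMSO, and its part in these differences was not tested.

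On day 2, 3 members were lower with auxin (8.09% of all tested genes), Hnrnpll, Srsf9 and Hnrnpc, and 2 higher (5.32% of all tested genes), Hnrnpdl and Hnrnpd. With any 1 library left out 1 or 2 were lower and 1 was higher, and 7 were higher without TMM factors or with only the 2 groups fitted. The pluripotency markers summed to 3061 to 3117 RPM with auxin and 4262 to 4284 with DMSO on day 2 and the primitive endoderm markers to 238 to 265 and 378 to 388, and their part was not tested. On day 4, 11 were lower (11.5% of all tested genes) and none higher. On that day the sum of the 6 primitive endoderm markers was 637 to 647 RPM with auxin and 1553 to 1573 with DMSO, and that of the pluripotency markers 2163 to 2214 and 3382 to 3397, with no marker of either list at 0, and their part in these differences was not tested. Srsf3 had 539 and 477 RPM with auxin and 702 and 721 with DMSO (log2 difference −0.70, SE 0.09, edgeR adjusted p = 4.88e-06), and Srsf7 had 334 and 339 against 485 and 409 (log2 difference −0.62, SE 0.10, edgeR adjusted p = 3.16e-05). In both genes every auxin library was below every DMSO library. Hnrnpf (−0.62), Sf3a2 (−0.55), Sf3a3 (−0.52) and Hnrnpa1 (−0.49) came next. Of the reads of Hnrnpf and Hnrnpa1 in Quant-seq libraries 98.2% and 99.6% were multimapped. With any 1 library left out 6 or 7 were called, without multimapped reads 7, by DESeq2 6, without TMM factors 3 and with a log2 change of at least 1 also required 0. On day 6 Srsf3 stood at 431 with DMSO, a single value, and at 416 and 451 with auxin.

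The split of reads between the 3′ UTR rows of a gene changed in Hnrnpa2b1 during RA. Its rows are separate intervals, and the distal and proximal rows given below end at different annotated 3′ ends. For its other rows no GENCODE vM21 transcript that ends there was found. The gene lies on chromosome 6, 51460932 to 51469894 on the minus strand of GRCm38. The distal row spans 51460932 to 51461433 and the proximal row 51462760 to 51463254. The last 30 bases of transcripts that end at these rows, and at the distal row of Hnrnpd for comparison (chromosome 5, 99955935 to 99961333), are shown with the poly(A) signal hexamer in capitals, from the GENCODE vM21 transcripts, 5′ to 3′.
Hnrnpa2b1 distal end, chr6:51460932-51460961: ttactgtctAATAAAatataccttactatg
Hnrnpa2b1 proximal end, chr6:51462760-51462789: tatgatttAATAAAataattctaaaggaaa
Hnrnpd distal end, chr5:99955935-99955964: ttaacaATTAAActttccagcactcatgca
Both Hnrnpa2b1 ends hold the hexamer AATAAA, which starts 21 bases before the end in the distal and 22 in the proximal transcript. Hnrnpd holds the variant ATTAAA, 24 bases before its end.

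The distal row held 26.5% and 28.5% of the Hnrnpa2b1 reads with DMSO at 0 h of RA, 31.5% and 32.1% at 8 h, 48.9% and 50.2% on day 1, 43.9% and 44.1% on day 2, and 40.9% and 41.4% on day 4. Every DMSO library with RA lay above both 0 h libraries. The proximal row went from 72.1% and 70.4% at 0 h to 47.8% and 44.5% on day 1. A short row at 51463411 to 51463431 held 0.76% to 1.00% at 0 h and 2.81% to 4.69% on day 1, with 20 to 72 reads. On day 1, 3 of 28 rows of 9 members were called by edgeR's test of the row against the rest of its gene (2.38% of all rows tested), and all 3 were these rows. The log2 changes of their share were 0.85 (adjusted p = 0.000504), −0.63 (adjusted p = 0.00854) and 2.09 (adjusted p = 0.0018). Leaving out either 0 h library gave 0 calls.

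On day 4, 2 of 28 rows were called (1.81% of all rows tested), the distal row of Hnrnpa2b1 (0.58, edgeR adjusted p = 0.0334) and a row of Hnrnpd at 99962098 to 99962204 (−3.04, edgeR adjusted p = 0.0483). The Hnrnpd row rests on 6 to 17 reads at 0 h and 0 to 2 on day 4, and no row was called among those averaging 50 reads or more. In Hnrnpa2b1, 52.3% of the Quant-seq reads were multimapped. Without them the distal row held 34.5% and 36.7% at 0 h and 55.7% and 59.3% on day 1, and the 3 day 1 calls remained, but on day 4 none was left. With auxin the distal row held 26.4% and 27.9% at 8 h, 44.1% and 44.0% on day 1 and 30.8% and 29.0% on day 4, below each DMSO library of the same time. That difference was not tested. At 0 h of SLAM-seq the distal row held 19.2% to 26.99% in DPY30–mAID, 23.0% to 29.8% in RBBP5–FKBP and 44.3% to 47.7% in dKO cells, where genotype, clone and sequencing cannot be told apart. In SLAM-seq no row of a member was called at 24 h in DPY30–mAID (0 of 41 rows, 0.119% of all rows, 2 at an unadjusted p below 0.05), at 24 h in RBBP5–FKBP (0 of 44, 0.0%, 4 unadjusted) or at 48 h in dKO cells (0 of 29, 0.121%, 0 unadjusted).

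**Figure D5:**
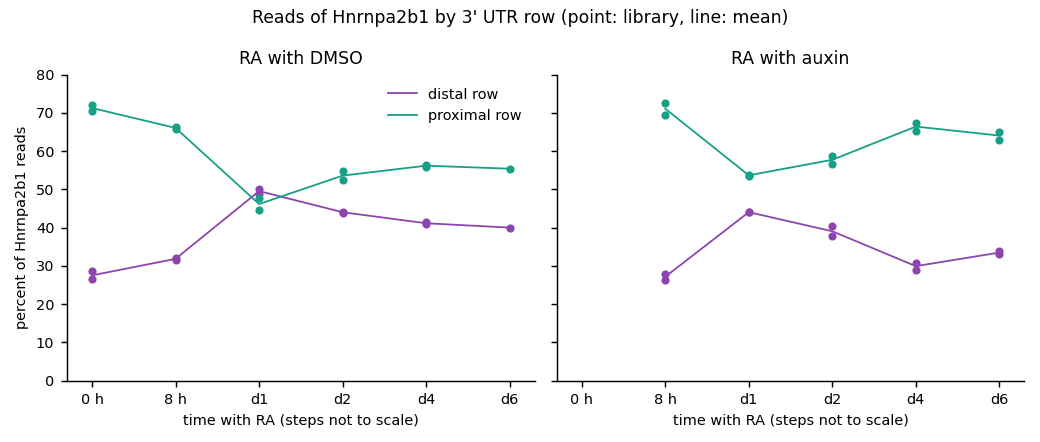
Percent of Hnrnpa2b1 reads (vertical axis) in the distal and the proximal 3′ UTR row against time with RA, with DMSO (left) or auxin (right); points are libraries and lines join the means. With DMSO the distal row goes from 26.5% to 28.5% at 0 h to 48.9% to 50.2% on day 1.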

How the data were processed

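SLAM-seq and Quant-seq 3′-end libraries were deposited as tables of 3′ UTR intervals (mm10, GENCODE vM14). In these tables the authors had counted with SlamDunk 0.3.4 the reads, T>C reads, multimapped reads, covered T positions and conversions, and the counts are raw. The CPM and the conversion rate, a fraction, that the authors deposited beside them were not used. For Quant-seq the methods name HISAT2 2.2.1 and featureCounts, while the header of the Quant-seq tables names SlamDunk.

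Counts were summed per gene. Members and lists were chosen with earlier results of these data known. Genes averaging 10 or more reads in 1 group or more were tested with edgeR 4.0.16 (R 4.3.3), quasi-likelihood, with Benjamini-Hochberg adjustment over all genes, at an adjusted p below 0.05, in 1 fit per line, 1 of DPY30–mAID with dKO cells for the line differences and 1 for Quant-seq. T>C fits used total reads and their TMM factors as library sizes. Rows were tested with diffSpliceDGE. DESeq2 1.42.0, other scalings and filters, a replicate block and libraries left out were alternatives. The row fit without multimapped reads, the subset of members with few such reads and the total-read line difference were added after the values were seen. The fits were tested on simulated data. Both DMSO libraries of day 6 held the same values, so they counted as 1, without a test.

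Members named with values were mostly drawn from the called members with the largest log2 change, up to 5 per direction and class. The others were mostly from 10 examples (Srsf1, Srsf2, Srsf3, Srsf7, Hnrnpa1, Hnrnpa2b1, Hnrnpk, Hnrnpu, Sf3b1 and Sf3a3). Not all of these genes are named in every comparison. Of other splicing lists up to 3 called genes were named, and every called row. Srsf4, Hnrnpc and Hnrnpd were named as the extremes of labelling after their values were seen. Protein sequences were not used here. Figures were drawn with matplotlib 3.10.9.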

Additional observations from a re-analysis of the deposited data

Results flagged for a closer look

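These results were picked because the effect of auxin differed between dKO and DPY30–mAID cells in a test of the difference itself, and the libraries of these lines also differ in T positions per covered read and in depth, whose part in the differences was not tested. No group had 4 or more libraries, so single libraries were not tested as outliers. All values are differences on the log2 scale, dKO minus DPY30–mAID, of the change from 0 h, and all passed edgeR's test with Benjamini-Hochberg adjustment over all genes.

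In newly made RNA at 8 h the difference was 1.73 for Srsf7 and 1.53 for Srsf3. Without TMM factors 0 members were called there, as was the case with certain single libraries left out. At 24 h it was −2.36 for Srsf7, −1.85 for Srsf3 and −1.72 for Srsf11. In total reads at 8 h it was 2.46 for Srsf7, 1.29 for Srsf5, 1.14 for Srsf3, 0.76 for Srsf10, 0.57 for Srsf2 and −0.40 for Hnrnpa1. The call of Hnrnpa1 was lost without multimapped reads. For Srsf7 and Srsf3 the T>C difference thus had opposite signs at 8 h and 24 h, with the 8 h and 24 h differences sharing the 0 h libraries.

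In total reads at 24 h the SR genes were at 0.57 (Srsf1), 0.60 (Srsf10), 0.29 (Srsf2) and −0.69 (Srsf11). The hnRNP genes were at 1.17 (Hnrnpul2), 1.14 (Hnrnph3), 1.09 (Hnrnpd), 0.96 (Hnrnph1), 0.67 (Hnrnpm), 0.65 (Hnrnpa0), 0.65 (Hnrnpu), 0.64 (Hnrnpul1), 0.54 (Hnrnpab), 0.52 (Hnrnpf), −0.52 (Hnrnpc) and −0.54 (Hnrnpk). The SF3 genes were at 1.17 (Sf3a2), 0.77 (Sf3b3), 0.65 (Sf3a1), 0.58 (Sf3b4) and −0.46 (Sf3b6).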

How the results depend on the processing

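Whether the replicate numbers pair the libraries was not settled. In total reads, deviations of same-numbered libraries from their group means had correlations of −0.07 to 0.11 in DPY30–mAID cells and −0.37 to 0.32 in RBBP5–FKBP cells. They were −0.24 to 0.54 in dKO cells and −0.32 to 0.47 in Quant-seq libraries. The best match had the same number for 8 of 12 libraries in DPY30–mAID, 1 of 12 in RBBP5–FKBP, 8 of 12 in dKO cells and 8 of 20 in Quant-seq. In groups of 2 libraries the deviations mirror each other, so for dKO cells and Quant-seq this check cannot decide. With the replicate number as a block, 42 of 42 counts of called genes and 5 of 5 counts of rows stayed within 1.5 times their value, and of the values of single members and rows 542 kept their direction and their side of the threshold, called or not, while 6 gained a call and 7 lost it.

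The cause of the changes that follow was not tested, except where fewer genes or samples entered by construction.

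With TMM factors from T>C reads, which remove a change shared by all genes, the members called lower in newly made RNA numbered 13 (8 h) and 8 (24 h) in DPY30–mAID, 0 (8 h) and 3 (24 h) in RBBP5–FKBP, and 0 (4 h), 1 (8 h), 1 (24 h) and 4 (48 h) in dKO cells. Those higher at 24 h in DPY30–mAID cells numbered 6, and the 8 h difference between lines was higher for 4. The median log2 change of the members became −0.47 (8 h) and −0.33 (24 h) in DPY30–mAID, 0.018 (2 h), −0.44 (8 h) and −0.25 (24 h) in RBBP5–FKBP, and −0.087, −0.11, −0.12, 0.039 and −0.12 at 2 h, 4 h, 8 h, 24 h and 48 h in dKO cells, and 0.30 for the 24 h difference between lines. Under this scaling the sign of T>C changes in dKO cells turned at 24 h for Hnrnpa2b1 (0.039), Hnrnpl (0.055), Srsf6 (0.15), Hnrnpk (0.12), Srsf10 (0.21), Hnrnpdl (0.24), Srsf2 (0.20), Hnrnpu (0.084), Hnrnpf (0.18) and Srsf3 (0.41, past the threshold). At 48 h it turned for Hnrnpl (0.13), Srsf5 (0.025), Hnrnpk (0.22), Hnrnpll (0.21), Sf3a3 (0.040), Hnrnpdl (0.061), Sf3b3 (0.066), Hnrnpul1 (0.30), Hnrnpf (0.089), Hnrnph2 (0.53), Hnrnpc (0.38), Hnrnpul2 (0.15) and Sf3b5 (0.16).

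With only the 2 groups compared in the fit, T>C counts were 9 lower at 8 h, 12 lower and 6 higher at 24 h in DPY30–mAID, 1 at 2 h and 5 lower at 8 h in RBBP5–FKBP, and 0 at 4 h and 1 at 8 h in dKO cells. Total-read counts were 3 lower and 0 higher at 8 h in RBBP5–FKBP and 4 lower at 48 h in dKO cells. With RA 4 were higher at 8 h, and with auxin 3 were called at 8 h, 13 higher on day 1 and 7 higher on day 2.

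Without TMM factors T>C counts were 2 lower at 24 h in DPY30–mAID and 6 lower at 8 h in RBBP5–FKBP cells, and total-read counts were 5 lower at 8 h in DPY30–mAID, 3 (8 h) and 3 (24 h) lower in RBBP5–FKBP, and 6 at 24 h and 11 at 48 h in dKO cells. Medians of total reads became 0.025 at 8 h in DPY30–mAID and −0.092 at 24 h and −0.12 at 48 h in dKO cells, and those with RA −0.45 on day 2 and −0.18 on day 4. For auxin against DMSO they became −0.015 at 8 h, 0.11 on day 2 and −0.046 on day 4. With RA 5 were higher on day 4, and with auxin 7 higher on day 2 and 3 lower on day 4. Of the differences between lines 0 T>C effects were higher at 8 h and 2 total-read effects lower at 8 h, with a median of 0.040.

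With a log2 change of at least 1 also required, T>C counts lower were 6 at 8 h in RBBP5–FKBP and 0, 0 and 6 at 4 h, 8 h and 24 h in dKO cells. Total-read counts were 3 lower and 0 higher at 8 h and 5 lower and 0 higher at 24 h in DPY30–mAID, 2 lower and 0 higher at 8 h and 1 lower at 24 h in RBBP5–FKBP, and 0 at 24 h and 48 h in dKO cells. With RA they were 1 lower at 8 h, 12 lower and 0 higher on day 1, 5 lower and 1 higher on day 2 and 0 lower and 1 higher on day 4, and with auxin 0 on days 1, 2 and 4. At 0 h between lines 2 were lower and 2 higher, and total-read effects were 0 lower and 3 higher at 8 h and 0 lower and 4 higher at 24 h.

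DESeq2 called 2 members at 2 h in RBBP5–FKBP cells, 1 with auxin at 8 h, 6 lower with auxin on day 4, 8 higher and 7 lower in the T>C difference at 8 h and 24 h, and 2 lower in the total-read difference at 8 h. Without a filter on low counts 8 were lower in T>C reads at 8 h in RBBP5–FKBP and 1 at 8 h in dKO cells, and 3 were higher with RA at 8 h.

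Among the 24 members of DPY30–mAID and RBBP5–FKBP and the 22 of dKO cells with under 10% multimapped reads, an alternative chosen after seeing the data, T>C counts lower were 11 (8 h) and 2 (24 h) in DPY30–mAID with 1 higher at 24 h, 9 (8 h) and 10 (24 h) in RBBP5–FKBP, and 0, 1, 14 and 20 at 4 h, 8 h, 24 h and 48 h in dKO cells. Total-read counts were 3 lower at 8 h and 14 lower and 2 higher at 24 h in DPY30–mAID, 2 (8 h) and 2 (24 h) lower in RBBP5–FKBP, and 5 at 24 h and 10 at 48 h in dKO cells. Without multimapped reads 2 were higher with RA at 8 h, 7 lower with auxin on day 4 and 0 lower in the total-read difference at 8 h, and 0 rows were called on day 4 of RA, as with a mean of at least 50 reads per row (0). The sign turned for Hnrnpf at 8 h in DPY30–mAID total reads (0.27), for Hnrnpf (0.082) and Hnrnpa1 (0.74) on day 4 of RA, and at 0 h between lines for Hnrnph2 (−4.398), Hnrnpa1 (−1.81) and Hnrnpa3 (−0.91).

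With 1 library left out in turn, T>C counts ranged from 13 to 30 lower at 8 h and 0 to 2 lower at 24 h in DPY30–mAID, 4 to 9 at 8 h in RBBP5–FKBP, and 0 to 1, 1 to 4 and 15 to 29 at 4 h, 8 h and 24 h in dKO cells. Total-read counts ranged from 5 to 11 lower and 0 to 2 higher at 8 h and 2 to 5 higher at 24 h in DPY30–mAID, 3 to 8 lower and 0 to 1 higher at 8 h and 3 to 4 lower at 24 h in RBBP5–FKBP, and 5 to 10 lower at 24 h in dKO cells. With RA they ranged from 4 to 6 lower at 8 h, 2 higher in each case on day 2 and 1 to 2 higher on day 4, and with auxin from 2 to 5 higher on day 1, 1 to 2 lower and 1 higher in each case on day 2 and 6 to 7 lower on day 4. Line differences ranged from 0 to 18 higher at 8 h and 1 to 4 lower at 24 h in T>C reads, and from 0 to 2 lower at 8 h and 11 to 16 higher at 24 h in total reads. Rows ranged from 0 to 2 on day 1 and 0 to 1 on day 4 of RA. Medians of T>C changes ranged from −0.49 to −0.37 at 24 h in DPY30–mAID and from −0.30 to −0.042, −0.45 to −0.28, −0.36 to −0.17 and −0.874 to −0.636 at 2 h, 4 h, 8 h and 24 h in dKO cells. Those of total reads ranged from −0.19 to 0.0083 at 8 h in RBBP5–FKBP and −0.078 to −0.046 at 8 h in dKO cells, those with RA from −0.58 to −0.41 on day 2, and those with auxin from 0.14 to 0.20 on day 1 and −0.29 to −0.20 on day 4. Those of the line differences ranged from −0.060 to 0.18, 0.58 to 1.32 and −0.44 to −0.21 in T>C reads at 2 h, 8 h and 24 h, and from 0.044 to 0.16 and 0.28 to 0.43 in total reads at 8 h and 24 h, and at 0 h from −0.086 to 0.0039. Where a group kept a single library, that library was assumed to vary like the other groups.

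How many known changes the fits recover was tried on simulated data. On simulated counts the edgeR test recovered 30.5% of genes changed by 1 and 91.3% of those changed by 2 on the log2 scale at 8 h in DPY30–mAID T>C reads (5891 genes), 18.3% and 81.3% at 48 h in dKO T>C reads (5628 genes), and 50.5% and 95.9% in DPY30–mAID total reads at 8 h (9518 genes). False calls made up 2.36%, 6.31% and 8.23% of the calls in these simulations. For the T>C line difference at 8 h it recovered 6.25% and 47.1% (7633 genes), with 0% of the calls false. These rates hold for the simulated counts, and whether those vary like the real libraries was not tested. In the real total reads at 8 h in DPY30–mAID cells 2 hnRNP genes were called lower and 2 higher. No hnRNP change there went beyond −0.37 or 0.47. The simulated rates are therefore not taken as rates for the members.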
